A study of Mus musculus with 4 samples.

Results

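The genes described here encode 9 small leucine-rich proteoglycans, Dcn, Bgn, Aspn, Lum, Fmod, Prelp, Omd, Ogn and Podn, and the large chondroitin sulfate proteoglycan versican (Vcan). They were taken by symbol from the rows of the expression table that the array's annotation assigns to 1 gene only, and for Bgn, Fmod and Prelp, which have more than 1 row, the row with the highest mean was kept. All 10 were found among 22180 genes with a row of their own. The cells were primary vascular smooth muscle cells (VSMCs), which form the contractile middle layer of arteries. They were taken from mouse thoracic aortas stripped of adventitia and kept for 5 days in medium with serum. The control group was SM22α-Cre(−)Mmp14(fl/fl)Apoe(−/−) and the knockout group SM22α-Cre(+)Mmp14(fl/fl)Apoe(−/−), with 2 arrays each. Both groups therefore carried floxed Mmp14, which encodes MT1-MMP, a collagenase anchored in the cell membrane. Both also lacked Apoe, which encodes a protein of plasma lipoproteins, and all mice had been fed a Western diet for 3 months. Cre was driven by the SM22α (Tagln) promoter, which is active in smooth muscle, and the controls had no Cre, so presence of Cre and loss of Mmp14 cannot be told apart. The mice came as 2 separate pairs per the design text, so the spread between arrays holds mouse, culture and hybridisation together. The animals' age was not given in the sources used here.

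Small leucine-rich proteoglycans are secreted core proteins built of leucine-rich repeats that wrap around collagen fibrils, set fibril diameter and spacing, and bind growth factors of the TGF-beta family. Decorin and biglycan carry chondroitin or dermatan sulfate chains, lumican and fibromodulin carry keratan sulfate, and versican binds hyaluronan and fills the provisional matrix of the arterial intima. In atherosclerotic vessels the chondroitin sulfate chains of biglycan and versican are known to bind and retain lipoproteins that contain apolipoprotein B. Lumican and decorin are known substrates of MT1-MMP at the protein level. The arrays measured RNA of the core proteins and say nothing of protein cleavage or of the sugar chains.

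Several of these genes lie side by side in the mouse genome (RefSeq annotation of GRCm38.p6). Dcn and Lum are neighbours on chromosome 10, Aspn, Omd and Ogn follow one another on chromosome 13, and Prelp and Fmod are neighbours on chromosome 1. Bgn lies on chromosome X, Podn on chromosome 4, and Vcan on chromosome 13 next to the link protein gene Hapln1. RefSeq promoter windows of 300 bases, 250 before to 50 after an annotated transcript start, were found for 8 of the 10 genes, in 9 windows. Fmod had knockout and control arrays that did not overlap, and Ogn had the 2 control arrays that lay farthest apart. Prelp, the neighbour of Fmod, read highest on the first knockout array, as did Fmod, Dcn, Lum and Podn. The windows of 3 genes, Fmod, Prelp and Ogn, are shown. They lie at chr1:134037004-134037303 (plus strand), chr1:133921352-133921651 (minus strand) and chr13:49607765-49608064 (plus strand), and capitals mark motif matches on either strand.
Fmod: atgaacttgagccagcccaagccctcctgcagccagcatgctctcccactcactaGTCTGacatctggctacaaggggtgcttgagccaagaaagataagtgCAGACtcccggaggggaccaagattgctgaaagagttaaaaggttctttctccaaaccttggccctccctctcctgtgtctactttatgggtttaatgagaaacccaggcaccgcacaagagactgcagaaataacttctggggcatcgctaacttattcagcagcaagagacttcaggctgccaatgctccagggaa
Prelp: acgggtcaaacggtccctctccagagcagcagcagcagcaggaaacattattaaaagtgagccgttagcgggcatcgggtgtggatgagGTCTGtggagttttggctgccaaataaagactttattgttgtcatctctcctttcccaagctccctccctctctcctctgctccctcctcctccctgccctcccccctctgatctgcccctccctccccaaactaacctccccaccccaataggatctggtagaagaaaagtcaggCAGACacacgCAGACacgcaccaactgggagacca
Ogn: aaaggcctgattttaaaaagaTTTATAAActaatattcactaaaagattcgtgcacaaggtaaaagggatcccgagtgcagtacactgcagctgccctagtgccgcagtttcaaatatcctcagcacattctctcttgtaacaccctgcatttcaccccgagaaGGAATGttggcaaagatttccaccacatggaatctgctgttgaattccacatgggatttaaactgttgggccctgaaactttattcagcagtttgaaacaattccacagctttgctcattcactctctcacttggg

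The motifs searched on both strands were the TATA box (TATAAA), the TEAD element (GGAATG), the AP-1 site (TGANTCA), the core of the SMAD-binding element (GTCTG), the Sp1 site (GGGCGG) and the CArG box of serum response factor. In the Fmod window GTCTG matched 195 bases before the start and, on the opposite strand, 148 bases before it. Prelp had the same motif 161 bases before the start and, on the opposite strand, 15 and 25 bases after it. Ogn had GGAATG 86 bases before the start and TATAAA on both strands in an overlapping pair, 227 and 229 bases before it. Of all 32851 windows of the same length, 49.6% held GTCTG, 14.7% GGAATG and 13.6% TATAAA. Across the 9 windows of these genes, 3 held GTCTG (Prelp, Fmod and Podn), 3 held GGGCGG (Podn, Vcan and Bgn) against 35.7% of all windows, 2 held TATAAA (Aspn and Ogn) and 1 held GGAATG. The AP-1 site, in 7.81% of all windows, and the CArG box, in 1.63%, matched in 0 of the 9. These matches describe the letters of the windows and were not tied to binding or to the values that follow.

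Values are log2 expression levels after RMA, a method that corrects background, normalises across arrays and summarises the probes of a transcript. Differences are knockout minus control on that log2 scale, from limma fitted over all genes with a mean level of at least 3.02, the median of all rows. This left 12550 genes, 9 of the 10 proteoglycan genes among them, and Omd below the level. Array medians ran from 3.01 to 3.05. Mmp14, the targeted gene, read 8.71 and 9.05 on the control arrays and 8.27 and 8.19 on the knockout arrays. Both knockout arrays lay lower, and the difference of -0.65 (SE 0.17) did not pass after adjustment (limma, adjusted p = 0.319). Its row may include probes beyond the deleted exons and is then only a partial check of the labels. Tagln read 10.5 and 9.77 on the control arrays and 10.4 and 9.81 on the knockout arrays. With 2 arrays against 2, a two-sided exact permutation test cannot give a p below 0.333.

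None of the 9 tested proteoglycan genes passed at an adjusted p under 0.05 by limma, as was the case for all 12550 genes (0% called). Fmod alone reached an unadjusted p under 0.05, as did 11.7% of all tested genes (4.89% higher and 6.78% lower in the knockouts). Fmod was also the single gene of the 9 whose knockout and control arrays did not overlap, a separation seen for 44.3% of all tested genes (16.7% higher and 27.5% lower). By sign, 5 of the 9 differences were above 0 and 4 below, with a median of 0.14 against -0.05 over all tested genes and a range of -0.70 to 0.74. The median was -0.24 without knockout replicate 1. The family's count of 1 separated gene in 9 thus lies below the share over all genes. In RNA from whole cultures, fewer cells of a type and less RNA per cell cannot be told apart.

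**Figure D1:**
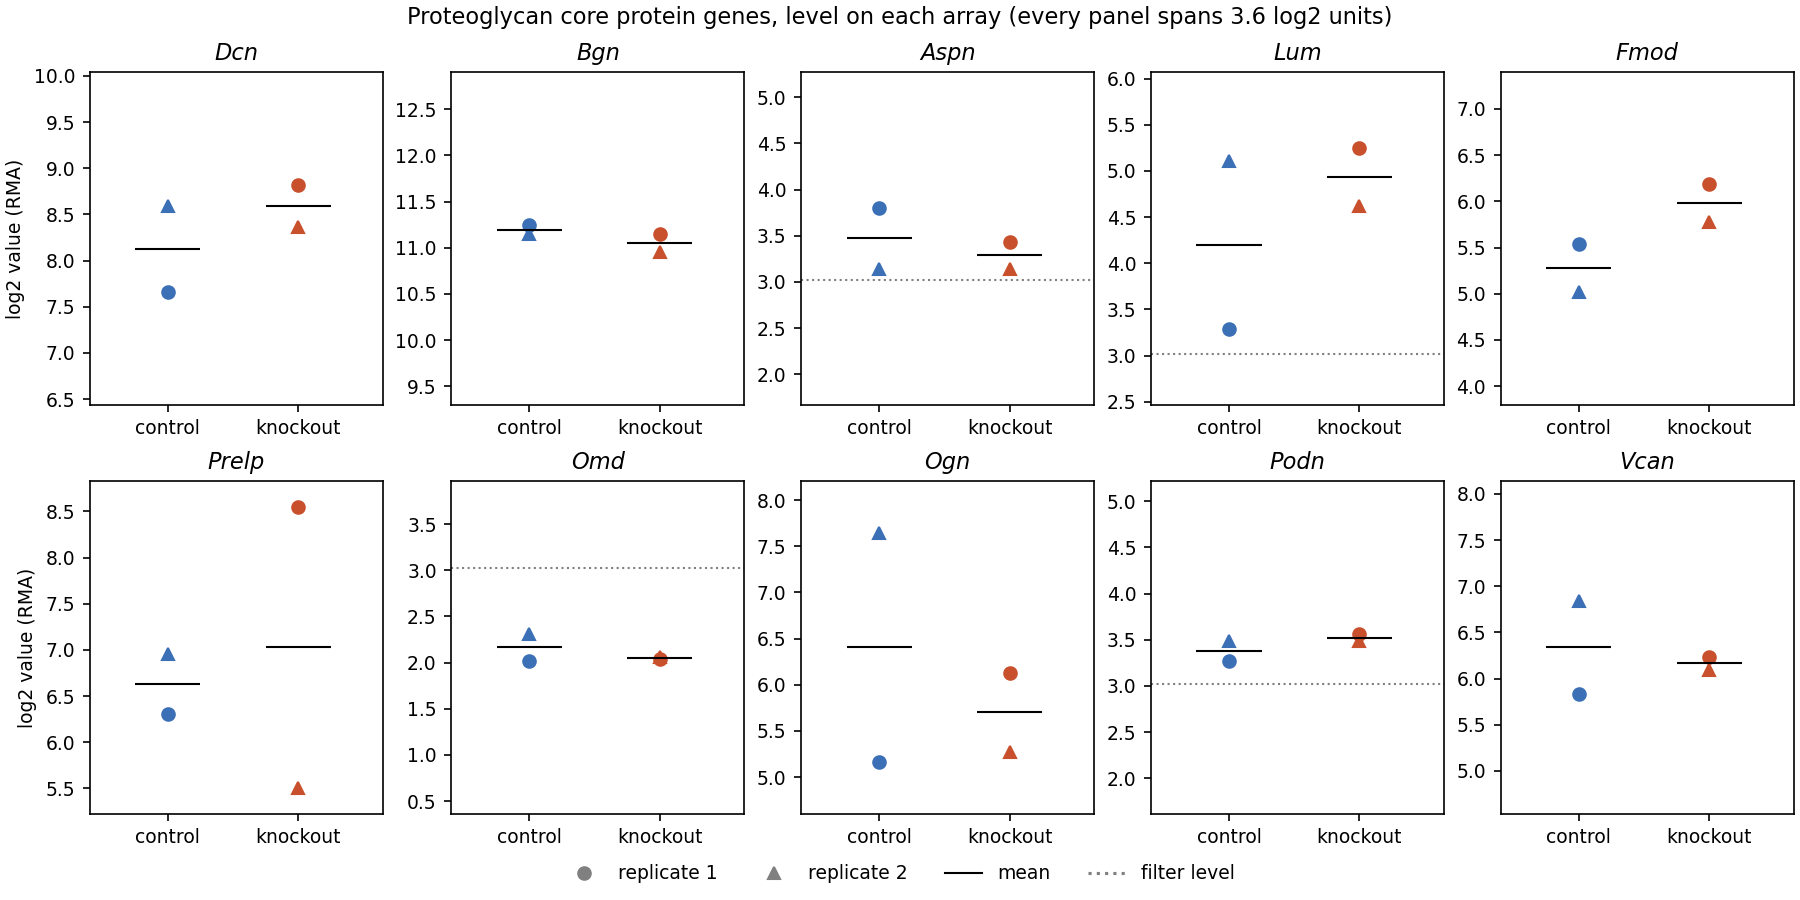
Level of each proteoglycan core protein gene on the 4 arrays (log2 value, RMA), controls in blue and knockouts in red, with circles for replicate 1, triangles for replicate 2, a line at each group mean and a dotted line at the filter level of 3.02. Every panel spans the same number of log2 units. The groups separate only for Fmod, while Lum, Ogn, Prelp and Vcan spread over more than 1 log2 unit within a group.

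Fmod encodes fibromodulin, a keratan sulfate proteoglycan that binds type I collagen and is required for normal tendon fibrils. It read 5.54 and 5.01 on the control arrays and 6.18 and 5.78 on the knockout arrays. Both knockout arrays lay above both control arrays. The group means were 5.28 ± 0.37 and 5.98 ± 0.28 (SD, n = 2 each). They differed by 0.70 (SE 0.25, 95% interval 0.04 to 1.36), or 1.63-fold, with an unadjusted p of 0.0415 and an adjusted p of 0.402 (limma). A second row for Fmod read 3.92 and 3.58 on the control arrays and 4.74 and 3.99 on the knockout arrays, again without overlap, and differed by 0.61. Leaving out single arrays gave differences from 0.44 (without control replicate 2) to 0.97 (without control replicate 1). The unadjusted p rose to 0.168 without control replicate 2, to 0.144 without knockout replicate 1 and to 0.0604 with the mean of both rows (limma). By Euclidean distance over the 4 arrays, each gene centred on its own mean, the 3 tested genes closest to Fmod were Prss3 (distance 0.066 log2 units, difference 0.75), Slc9a9 (0.095, difference 0.64) and Hhex (0.12, difference 0.65).

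Prelp, the neighbour of Fmod, encodes a heparin-binding member of the family that links basement membrane to the underlying collagen. It read 6.31 and 6.96 on the control arrays and 8.55 and 5.51 on the knockout arrays. The first knockout array was the highest of the 4 and the second the lowest, so the groups overlapped. The knockout mean was 7.03 ± 2.15 against 6.63 ± 0.46 in the controls (SD, n = 2 each), and the difference of 0.39 carried an SE of 1.02 (limma, adjusted p = 0.911). The gap of -3.04 between the knockout arrays, replicate 2 minus replicate 1, was larger in size than that of 99.9% of tested genes. The sign followed the array left out, with 1.91 without knockout replicate 2 and -1.13 without knockout replicate 1. A second, dimmer Prelp row read 3.61 and 3.94 on the control arrays and 3.71 and 3.59 on the knockout arrays and did not show the high first knockout array. The annotation does not say which part of the gene each row covers.

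Dcn encodes decorin, the family member best known for binding collagen and TGF-beta. It read 7.66 and 8.60 on the control arrays and 8.82 and 8.37 on the knockout arrays. The first control array was the low one, and the second control array lay between the knockout arrays. The means of 8.13 ± 0.66 and 8.59 ± 0.32 (SD, n = 2 each) differed by 0.46 (SE 0.36, 95% interval -0.48 to 1.41), with an adjusted p of 0.669 by limma. Without control replicate 1 the arrays gave -0.0045, and without control replicate 2 they gave 0.93.

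Lum encodes lumican, the keratan sulfate proteoglycan of cornea and skin that also occurs in the arterial wall. It read 3.29 and 5.11 on the control arrays and 5.25 and 4.62 on the knockout arrays. As for its neighbour Dcn, the first control array was the lowest and the first knockout array the highest, and the groups overlapped. Podn, which is not a neighbour, had the same order. The means of 4.20 ± 1.29 and 4.93 ± 0.44 (SD, n = 2 each) gave the largest positive difference of the family, 0.74 (SE 0.64, 95% interval -0.93 to 2.40; limma, adjusted p = 0.704). It was -0.17 without control replicate 1 and 1.64 without control replicate 2. The next genes along chromosome 10, Kera and Epyc, encode the corneal and cartilage members keratocan and epiphycan, and both stayed below the filter level.

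Bgn encodes biglycan, the closest relative of decorin and an abundant proteoglycan of the arterial wall. It read 11.2 and 11.1 on the control arrays and 11.1 and 11.0 on the knockout arrays. The spread within either group was small, and the second control array (11.1462) and the first knockout array (11.1467) nearly coincided. The difference was -0.15 (SE 0.15, 95% interval -0.54 to 0.24; limma, adjusted p = 0.748), so the interval leaves out a rise above 0.24. A second Bgn row read 11.0 and 11.0 on the control arrays and 10.8 and 10.5 on the knockout arrays and differed by -0.33 without overlap. After centring each array on its median, or a second quantile normalisation, the first row did not overlap either, with the knockouts lower.

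Aspn encodes asporin, a relative of decorin with an aspartate-rich stretch, which binds collagen and calcium. It read 3.80 and 3.14 on the control arrays and 3.43 and 3.14 on the knockout arrays. These levels lay near the filter level of 3.02, the first control array was the highest, and the groups overlapped. The difference was -0.18 (SE 0.27; limma, adjusted p = 0.834), and it was 0.15 without control replicate 1.

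Ogn encodes osteoglycin, also called mimecan, a family member of bone and of the arterial media. It read 5.16 and 7.65 on the control arrays and 6.13 and 5.27 on the knockout arrays. The second control array stood above the other three, and the first control array was the lowest. The means of 6.40 ± 1.76 and 5.70 ± 0.61 (SD, n = 2 each) gave the largest negative difference of the family, -0.70, with an SE of 0.87 (95% interval -2.96 to 1.56; limma, adjusted p = 0.795). It was -1.95 without control replicate 1 and 0.54 without control replicate 2. The gap of 2.49 between the control arrays was larger than that of 99.9% of tested genes.

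Omd, which lies between Aspn and Ogn and encodes the bone keratan sulfate proteoglycan osteomodulin, read 2.02 and 2.31 on the control arrays and 2.04 and 2.06 on the knockout arrays. Every array was below the filter level, and Omd was not tested. Ecm2, the relative on the other side of Aspn, was also below the level. The gap between the control arrays, replicate 2 minus replicate 1, was 0.30 at Omd, where levels this low leave little room for a difference, and -0.66 at Aspn, against 2.49 at Ogn.

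Podn encodes podocan, a family member known to restrain smooth muscle growth. It read 3.27 and 3.49 on the control arrays and 3.56 and 3.49 on the knockout arrays. The second array of each group had the same deposited value, and no knockout array lay below it. The difference was 0.14 (SE 0.15, 95% interval -0.25 to 0.54; limma, adjusted p = 0.758) at levels close to the filter.

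Vcan encodes versican, which is not a leucine-rich proteoglycan but a hyaluronan-binding relative of aggrecan. It read 5.84 and 6.84 on the control arrays and 6.24 and 6.10 on the knockout arrays. Both knockout arrays lay between the control arrays. The means of 6.34 ± 0.71 and 6.17 ± 0.10 (SD, n = 2 each) differed by -0.17 (SE 0.35, 95% interval -1.10 to 0.75; limma, adjusted p = 0.884). It was -0.67 without control replicate 1 and 0.33 without control replicate 2.

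**Figure D2:**
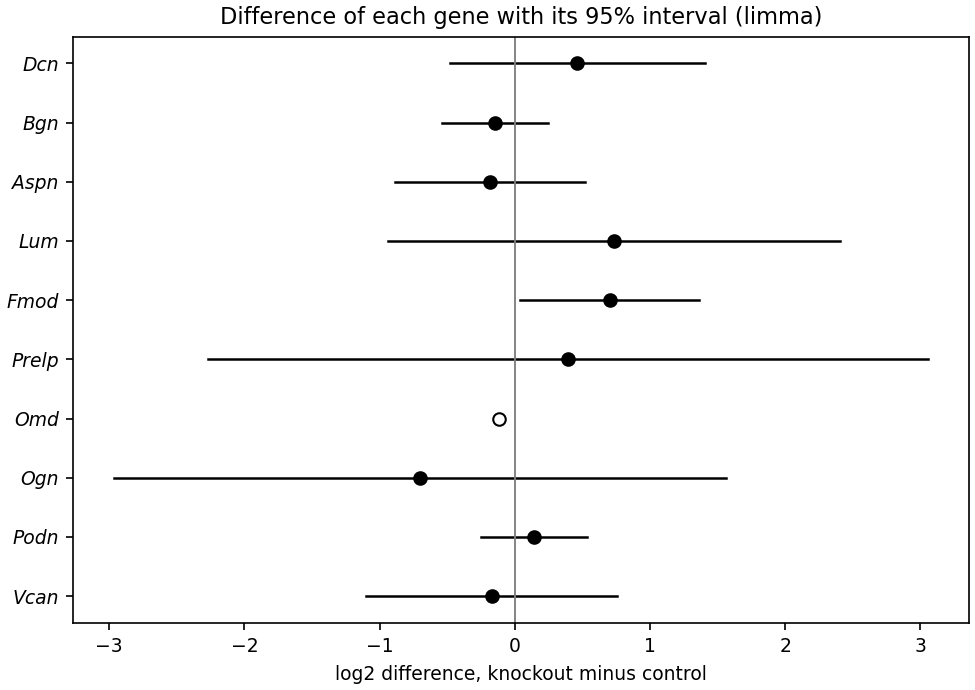
Log2 difference, knockout minus control, of each proteoglycan core protein gene with its 95% interval from limma (filled points), and of Omd, which was not tested (open point). The interval of Fmod, 0.04 to 1.36, is the one that leaves out 0, before adjustment for the number of genes.

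For most of the family the control arrays differed from each other more than the groups did. This held for 7 of the 9 tested genes, against 52.0% of all tested genes, and for the gap between the knockout arrays it held for 4 of the 9, against 51.5%. The pooled within-group SD of Dcn (0.52), Lum (0.96), Prelp (1.55), Ogn (1.32) and Vcan (0.51) was above 0.42, a level that 10% of all tested genes exceeded. Bgn (0.11), Podn (0.11), Aspn (0.36) and Fmod (0.33) were below it. The SDs of Aspn and Fmod were still larger than those of 86.3% and 83.3% of tested genes, whose median was 0.17. Knockout replicate 2 read below knockout replicate 1 for all 9 tested genes, against 47.0% of all tested genes, and control replicate 1 read below control replicate 2 for 6 of the 9, against 47.2%. The exceptions in the controls were Bgn, Aspn and Fmod. These counts were chosen after the values were seen.

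**Figure D3:**
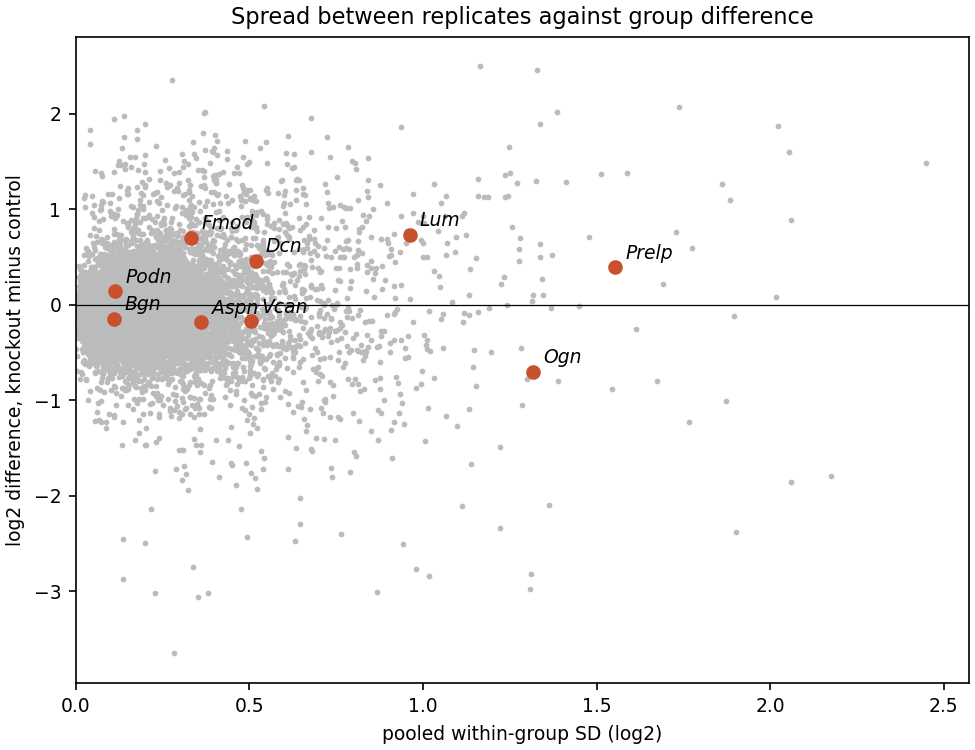
Group difference (log2, knockout minus control) against the pooled within-group SD (log2) for all tested genes in grey and the 9 tested proteoglycan genes in red. Prelp, Ogn and Lum lie far to the right, with SDs of 1.55, 1.32 and 0.96. Fmod combines a difference of 0.70 with an SD of 0.33, larger than that of 83.3% of tested genes.

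**Figure D4:**
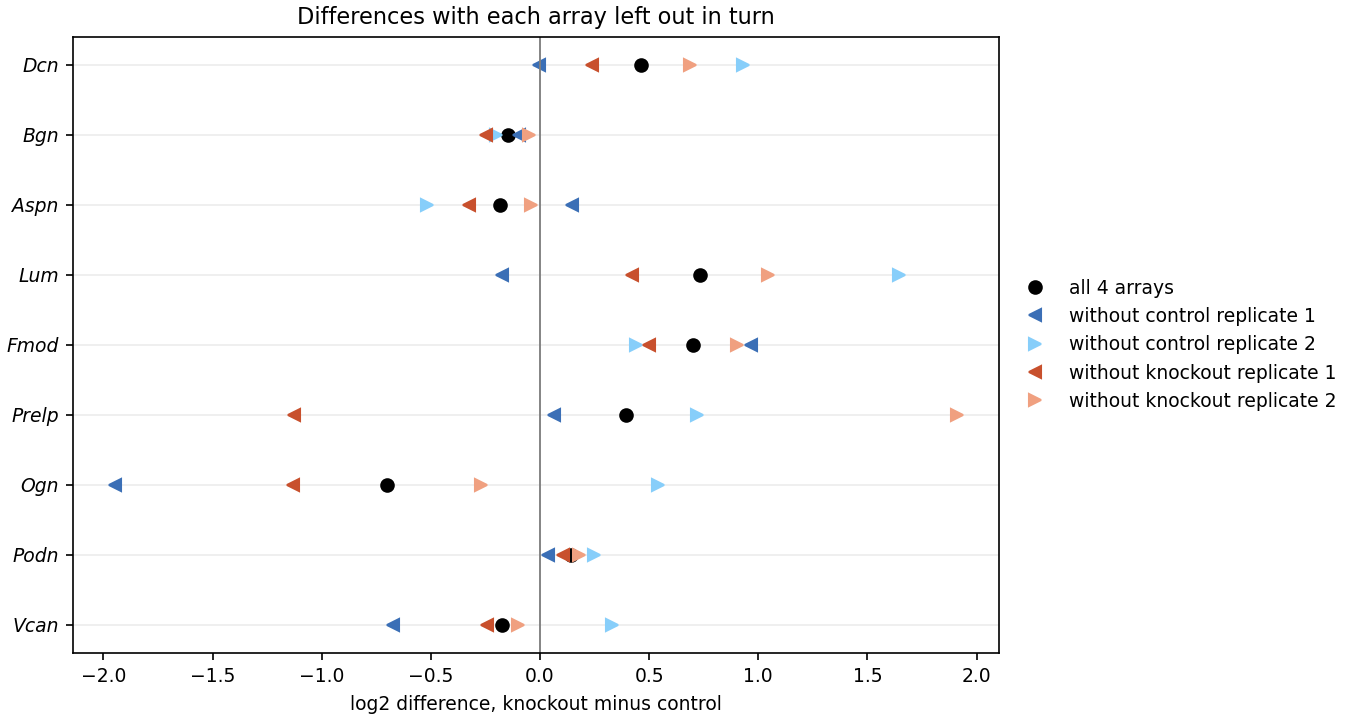
Log2 difference of each tested proteoglycan gene with all 4 arrays (black circles) and with each array left out in turn (triangles). Dcn, Lum, Aspn, Ogn, Vcan and Prelp change sign when 1 particular array is left out, and Fmod, Bgn and Podn do not.

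Markers of other cell types moved with the groups or with single arrays, and their part in the proteoglycan values was not tested. Over all tested genes, 16.7% were higher and 27.5% lower without overlap. All 10 macrophage markers were higher in the knockouts, 9 of them without overlap. Their summed signal on the linear scale was 3452 to 3560 in the controls and 5085 to 6048 in the knockouts. Of 8 tested endothelial markers 6 were lower without overlap. The other 2 were higher, Kdr without overlap (0.32) and Vwf with overlap (0.29). The summed signal of the endothelial list was 647 to 1329 in the controls and 189 to 247 in the knockouts. None of the macrophage list was below the filter level. On the endothelial list Tek and Cldn5 were. Smooth muscle markers, with 0 of 10 below that level, summed to 4892 and 3469 on the control arrays and 5111 and 3353 on the knockout arrays. The sum was lower on the second array of each group, an order that not every marker followed. Of the 10, 0 were higher and 2 lower without overlap, Smtn (-0.55) and Myocd (-0.14).

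Fibroblasts are a known source of Dcn, Lum and Ogn. The fibroblast and adventitial list had 8 tested members, 2 higher and 2 lower without overlap, against 16.7% and 27.5% of all tested genes. Pi16 and Clec3b, markers of adventitial fibroblasts, were below the filter level, and Ly6a and Entpd2 had no row of their own. The summed signal of the list was 2008 and 1876 on the control arrays and 2200 and 1588 on the knockout arrays. The higher ones were Serpinf1 (0.52) and Col15a1 (0.37), and the lower ones Cd34 (-2.40) and Dpt (-1.51). The remaining 4 overlapped: Pdgfra (-0.29), Thy1 (-0.01), Mfap5 (0.04) and Fbln1 (-0.25). Cd34 differed by about as much as the endothelial markers Cdh5 (-2.51) and Emcn (-2.48), and a tie to either cell type was not tested. Runx2 and Spp1 of the osteochondrogenic list had no row of their own, and Ibsp, Bglap and Comp were below the level. The list summed to 88.4 and 192 on the control arrays and 91.6 and 81.9 on the knockout arrays, highest on the second control array as Ogn was. Its brightest rows on that array were Sox9 and Col10a1. Col10a1 read 3.04 and 5.34 on the control arrays and 3.45 and 3.23 on the knockout arrays. Of the 5 tested members of the list, Sox9, a transcription factor of cartilage, and Col2a1, the collagen of cartilage, were lower without overlap. Over all tested genes that share was 27.5%. Sox9 read 5.09 and 6.55 on the control arrays and 3.90 and 4.57 on the knockout arrays. The members did not share one order over the arrays, since Alpl, the alkaline phosphatase of mineralising cells, was highest on the first knockout array (4.796).

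Genes that build or bind these proteoglycans were read from 8 lists, and 0 of their 62 tested members passed at an adjusted p under 0.05 by limma. At an unadjusted p under 0.05, 5 were higher and 7 lower, against 11.7% of all tested genes in either direction. In 30 of the 62 the groups did not overlap, against 44.3% of all tested genes. The counts of single lists that follow lie on both sides of that share. The protease list had the lowest share, with 1 higher and 1 lower of 7 tested genes. Keratan sulfate synthesis had the highest, with 1 higher and 2 lower of 4. Other members of the small leucine-rich family were mostly dim: 6 of 8 were below the filter level, and the tested Chadl and Podnl1 differed by -0.15 and 0.14, Podnl1 without overlap. Among the other hyalectans, link proteins and hyaluronan synthases, 6 of 11 were tested, 1 was higher and 1 lower without overlap, and the median difference was -0.11. The higher one was Has2, the main hyaluronan synthase of mesenchymal cells, whose product binds versican. Has2 read 5.29 and 5.34 on the control arrays and 6.41 and 6.49 on the knockout arrays. Its replicates lay close together and the groups far apart, with a difference of 1.13 (SE 0.14), or 2.19-fold (limma, adjusted p = 0.151). The lower one, the link protein gene Hapln3, differed by -0.12, and Cd44, the hyaluronan receptor, read 5.93 and 5.55 on the control arrays and 5.42 and 5.59 on the knockout arrays with overlap.

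Of 17 tested genes of chondroitin and dermatan sulfate synthesis, 5 were higher and 12 lower in mean, 4 and 5 of them without overlap, and the median difference was -0.11. Chpf, the chondroitin polymerizing factor, read 5.01 and 5.01 on the control arrays and 4.47 and 4.48 on the knockout arrays. The difference was -0.53 (SE 0.13; limma, adjusted p = 0.295). Fam20b, the xylose kinase of the linkage region, differed by -0.50 (adjusted p = 0.470, limma). Xylt1, which starts the chains on the core protein, differed by 0.59 (adjusted p = 0.481, limma). Csgalnact1, which adds the first chondroitin sugar, read 3.46 and 3.43 on the control arrays and 5.24 and 3.68 on the knockout arrays, and the first knockout array alone stood high.

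Keratan sulfate synthesis had 4 tested genes, 1 higher and 2 lower without overlap, and a median of -0.08. Chst1, the sulfotransferase that acts on keratan sulfate, read 4.58 and 4.56 on the control arrays and 3.86 and 3.24 on the knockout arrays. The difference was -1.02 (SE 0.24; limma, adjusted p = 0.283). Fmod, a carrier of keratan sulfate, differed by 0.70 between the same arrays. Chst5 differed by 0.14 and Chst2 by -0.14.

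The list of proteases that process or cleave proteoglycans had 7 tested genes, 1 higher and 1 lower without overlap, and a median of -0.03. It included Pcolce, an enhancer of procollagen processing and not itself a protease, which differed by -0.39 with overlap. Bmp1, which removes the propeptides of procollagen and of biglycan, differed by 0.36. Its relative Tll1 read 8.41 and 8.00 on the control arrays and 5.63 and 6.49 on the knockout arrays. The difference was -2.14 (SE 0.34; limma, adjusted p = 0.187). Adamts1, Adamts4, Adamts5 and Adamts9, which can cleave versican, differed by -0.03, -0.01, -0.14 and 0.14 with overlap.

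Receptors that bind proteoglycans had 10 tested genes, 4 higher and 1 lower without overlap, and a median of 0.05. The largest differences were those of Selplg, the P-selectin ligand of leukocytes (1.60), Cd14 (1.38), Tlr2, the innate immune receptor that binds biglycan and versican (0.76), and Igf1r (-0.66), with adjusted p-values of 0.144 to 0.485 by limma. The macrophage list moved between the same groups, with all 10 markers higher, and a tie between it and these receptors was not tested. Tlr4, the other receptor of biglycan, differed by 0.07.

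Collagens that these proteoglycans bind had 11 tested genes, 4 higher and 1 lower without overlap, and a median of 0.24. Col3a1 read 5.45 and 5.40 on the control arrays and 6.999 and 6.22 on the knockout arrays. The difference was 1.18 (SE 0.29; limma, adjusted p = 0.287). Col14a1 differed by 0.38, Col1a1 by 0.29 and Col6a1 by -0.65. The TGF-beta and BMP ligands, which several of the proteoglycans bind, had 5 tested genes, 3 of them lower without overlap. These were Bmp4 (-2.34), Bmp6 (-1.47) and Tgfb2 (-0.53), with adjusted p-values of 0.155 to 0.387 by limma. Bmp4 read 7.54 and 7.84 on the control arrays and 6.56 and 4.14 on the knockout arrays. Its gap between the knockout arrays was larger than that of 99.8% of tested genes. Tgfb1 and Tgfb3 differed by 0.20 and 0.03 with overlap.

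**Figure D5:**
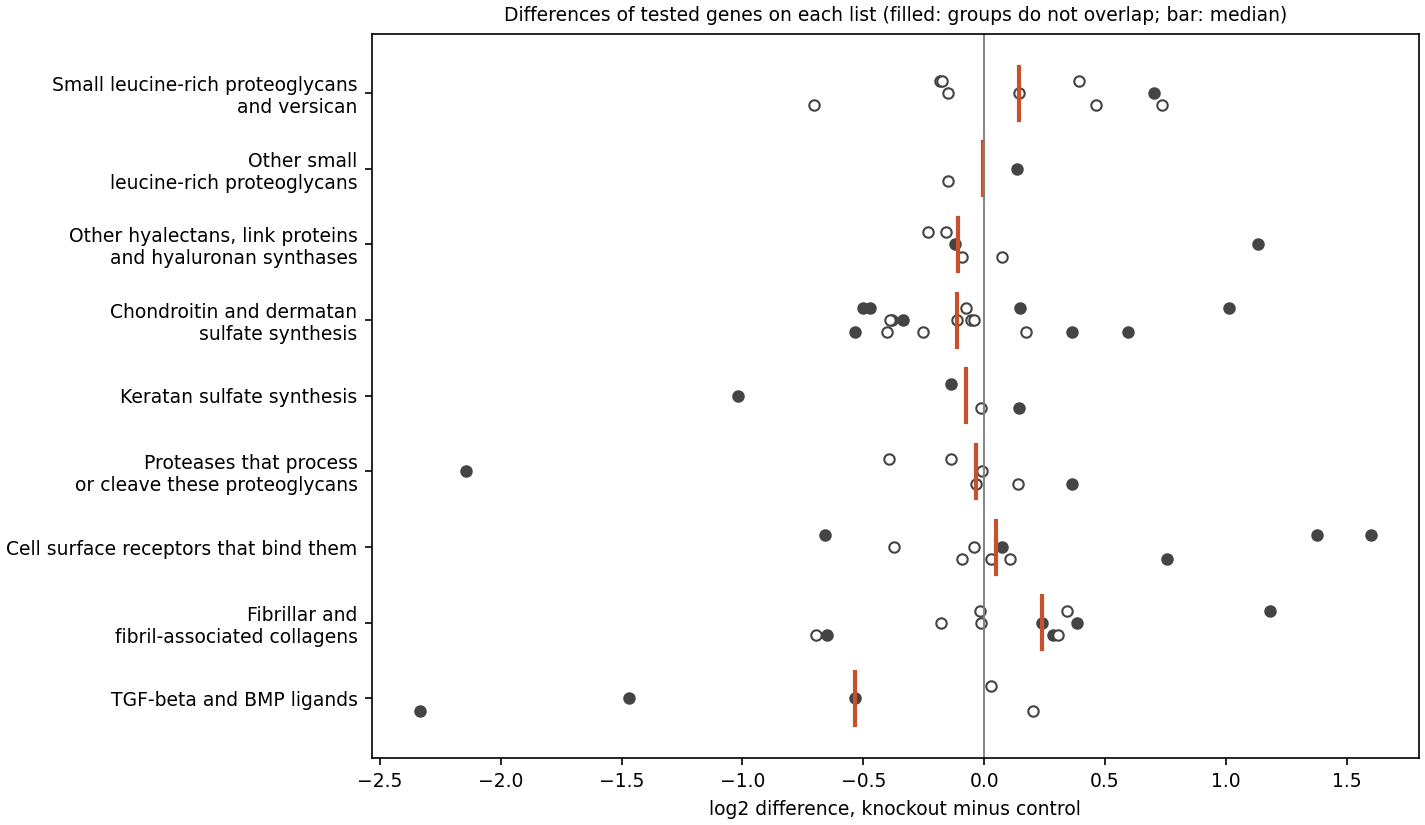
Log2 difference, knockout minus control, of each tested gene on the proteoglycan list and on the 8 lists of genes that build, bind or cleave proteoglycans, with filled points where the groups do not overlap and a red bar at each median. Has2 (1.13), Chst1 (-1.02), Tll1 (-2.14), Selplg (1.60), Col3a1 (1.18) and Bmp4 (-2.34) lie farther from 0 than any of the 9 proteoglycan genes.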

How the data were processed

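Total RNA (10 ng per array) was amplified and hybridised to Mouse Gene ST 2.1 strips, per the labels' protocols. The deposited values are log2 expression levels that the authors made with RMA, as named in the submitters' processing notes, with 1 value per transcript cluster. Their range, 1.17 to 12.4, set the log base. The RMA software, chip definition and build were not given in the sources used here. RMA makes the arrays' probe distributions alike and compresses low levels, so differences of dim genes may be understated. Sums over marker lists add linear signals of different rows, so bright rows weigh most. The number of arrays limits the precision.

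Of 41345 rows, 23521 had 1 symbol in the platform's annotation, 1814 several and 16010 none. Gene numbers of all 10 members matched the RefSeq table of GRCm38.p6. Differences came from limma 3.58.1 (lmFit, eBayes, R 4.3.3) without covariates, with Benjamini-Hochberg adjustment over 12550 genes. The fit was also run on simulated data. There it called 10 of 50 genes with a true difference of 1 log2 unit, and 45 of 50 with a true difference of 4. Alternatives were a replicate block, other filters, a second normalisation or centring, averaged rows, eBayes with trend, array weights and each array left out. Figures were drawn with matplotlib 3.10.9. The members, lists and tests were chosen with earlier results of these data known. Named genes were all members, Mmp14, Tagln and, per list, up to 4 tested genes, by size of difference, whose groups did not overlap. Chadl, Cd44, Kera, Epyc, Ecm2, Pcolce, Tlr4, Tgfb1, Tgfb3, the named cell type markers and the 4 Adamts genes were added after their values were seen. Protein sequences were not used here.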

Additional observations from a re-analysis of the deposited data

How the results depend on the processing

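Over 12 alternatives, 105 refits of the 9 tested proteoglycan differences gave adjusted p-values (limma) of 0.221 to 1.00, and none passed. In all 69 refits that kept every array the sign was that of the reported difference. In 6 of the 36 refits with 1 array left out it turned: Dcn (-0.0045), Aspn (0.15) and Lum (-0.17) without control replicate 1, Ogn (0.54) and Vcan (0.33) without control replicate 2, and Prelp (-1.13) without knockout replicate 1. The other ends of those ranges were 0.93 (Dcn), -0.52 (Aspn), 1.64 (Lum), -1.95 (Ogn), -0.67 (Vcan) and 1.91 (Prelp). The family's median ran from -0.24 to 0.44 over these.

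Members without overlap numbered 1 with all arrays (Fmod), and 2 (Bgn and Fmod) after a second quantile normalisation, with arrays centred on their median or with a gene's rows averaged. They numbered 3 to 8 with 1 array left out, where a group is a single array. Members at an unadjusted p under 0.05 numbered 0 with the mean of all rows, and 1 to 3 with 1 array left out. Over all genes, 929 reached that p with the 75th percentile filter and 975 to 1535 with 1 array left out, against 1465. Genes without overlap numbered 8893 with no filter, 3268 with the 75th percentile filter and 8904 to 9220 with 1 array left out, against 5556. The filters change how many genes are tested (22180 and 6787, against 12550).

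List medians moved with the array left out. Without knockout replicate 1 they were 0.10 for the collagens, 0.16 for the receptors, -0.25 for chondroitin, -0.12 for keratan sulfate synthesis and -0.84 for the TGF-beta and BMP ligands, and without knockout replicate 2 -0.03 for keratan sulfate synthesis. The sign turned for the proteases without control replicate 1 (0.15) and for the other hyalectans without control replicate 2 (0.04). The median of the other small leucine-rich genes, -0.0054 with all arrays, also turned. It was 0.02 without control replicate 2, 0.04 without knockout replicate 1 and 0.04 with no filter. The 75th percentile filter gave 0.45 for the other hyalectans, -0.25 for chondroitin synthesis, -0.01 for keratan sulfate synthesis, -0.14 for the proteases and -0.25 for the ligands, and centring gave 0.02 for the receptors.

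With the title number as a replicate block, 0 genes passed (1527 at an unadjusted p under 0.05). Fmod then had an unadjusted p of 0.00967 and an adjusted p of 0.252 (limma). No label says that a number marks a pair of mice. The gaps between replicates in the 2 groups correlated at 0.045 over genes, which cannot decide whether the numbers mark pairs. A lone array was taken to vary as the other group did. Levels near the filter (Aspn, Podn) limit what could be seen, since no background level was measured.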
